A study of Mus musculus with 16 samples.

Results

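Striatal RNA was compared between 4 BACHD mice given a Foxp2 virus (BACHD+Foxp2) and 4 control mice given a control virus (Con+Con), 8 of the 16 mice in the series, chosen by the genotype and the injected virus in their labels. The comparison asks what still sets the striatum of mutant mice given the Foxp2 virus apart from the striatum of mice with neither the mutant gene nor the Foxp2 virus. All 16 mice were 13 months old at harvest, and the groups are of separate mice. Besides their own Htt, BACHD mice have the human huntingtin gene in its mutant form, inserted on a bacterial artificial chromosome. Con+Con mice received a control virus, so they show the striatum after an injection and not that of an uninjected animal. Treated mice and controls, below, are the BACHD+Foxp2 and the Con+Con mice, while treated control mice are control mice given the Foxp2 virus. The other 2 groups each differ from Con+Con in a single factor: Con+Foxp2 mice in the virus, and BACHD+Con mice in the genotype. BACHD+Foxp2 and Con+Con differ in both, and that contrast on its own cannot tell the genotype from the virus. The labels do not say which kind of virus was used, how long before harvest it was injected, or from which species its Foxp2 came.

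The striatum is built mainly of GABAergic projection neurons. Those of the direct pathway carry the dopamine receptor Drd1, and those of the indirect pathway carry Drd2 and the adenosine receptor Adora2a. Huntington disease, caused by an expanded CAG repeat in the huntingtin gene, affects these neurons most, and reduced levels of their identity genes are a known feature of its mouse models. Foxp2 is a forkhead transcription factor that striatal projection neurons express, and it is known for its role in speech and vocal learning and in the growth and connections of these cells.

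Each library of the 8 held 2728388 to 3324769 reads assigned to genes. Levels are CPM, reads scaled to a common library total, and at this depth 3 reads in a library came to 0.885 to 1.12 CPM. For a gene at 0 in every mouse of a group, the floor used here was 3 reads over the 4 libraries of that group together. Reads carry no molecular identifiers, so such floors cover counting error only. A gene was called at an adjusted p under 0.05 in the quasi-likelihood test of edgeR, adjusted by Benjamini and Hochberg's method across 13563 genes, and every adjusted p below is of that test unless another is named. Projection neuron genes were present in all 8 libraries, with a summed level of the 28 shared identity genes of 9169 to 16901 CPM in Con+Con and 9607 to 12689 CPM in BACHD+Foxp2. Libraries stood apart in genes of neighbouring tissue. The summed level of 10 choroid plexus genes was 7691, 229, 3004 and 3418 CPM in the 4 Con+Con mice and 169, 217, 5132 and 417 CPM in the 4 BACHD+Foxp2 mice. The choroid plexus lines the ventricle beside the striatum, and 3 of the 4 Con+Con libraries but 1 of the 4 BACHD+Foxp2 libraries were high in its genes.

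BACHD+Foxp2 and Con+Con differed in 13 genes, which are 0.0958% of the genes tested. Of these, 5 rose (0.0369%) and 8 fell (0.059%). The rises were Foxp2, Htt, its neighbour Msantd1, the synaptic vesicle GTPase Rab3b and the membrane protein gene Ptchd2. The falls described here were the collagen gene Col4a2, 3 enzymes of intracellular signalling (Pde2a, Dgki and Map2k5), the lysosomal membrane protein Sidt2, the actin cross-linker Actn2 and the respiratory chain subunit Cox4i1. Among all tested genes 969 (7.14%) had an unadjusted p under 0.05, where 678 would have one if no gene differed, and 451 (3.33%) had groups that did not overlap in CPM. In bulk tissue, fewer cells of a type and less RNA per cell cannot be told apart, and this holds for each gene below.

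**Figure D1:**
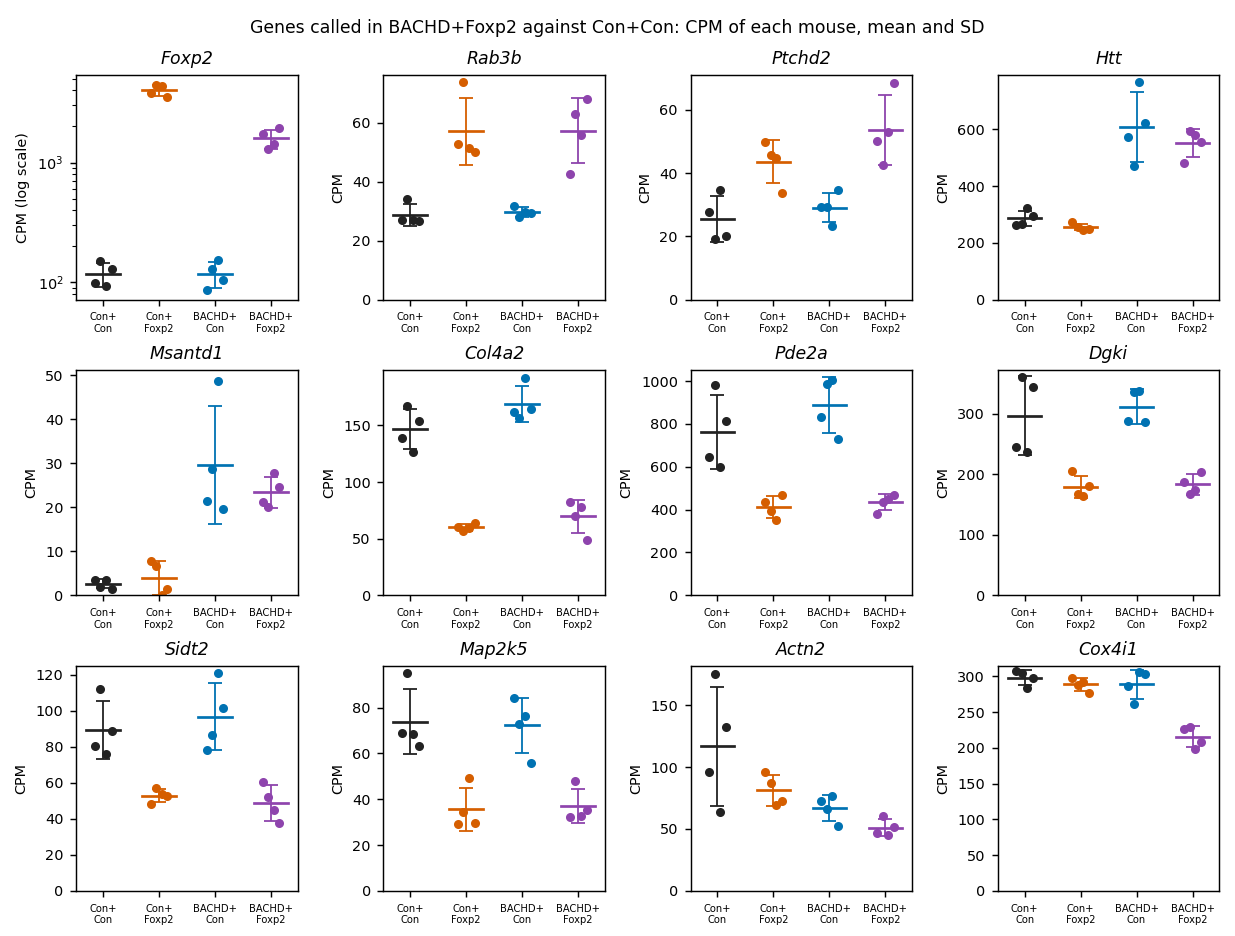
CPM of 12 called genes in each of the 16 mice, with genotype and virus on the x axis, points for mice, horizontal bars for group means and whiskers for SD (n = 4). The Foxp2 panel has a log axis, the others start at 0, and in each of the 12 panels the Con+Con and BACHD+Foxp2 points do not overlap.

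The delivered gene was measured first. Foxp2 (chromosome 6, 14901349 to 15441977, GRCm38) was at 98.5, 150, 93.2 and 130 CPM in the 4 Con+Con mice and at 1729, 1291, 1431 and 1929 CPM in the 4 BACHD+Foxp2 mice. Every treated mouse lay far above every control, by a log2 fold change of 3.76 (adjusted p = 2.24e-12, SE 0.18), from 118 ± 26.7 to 1595 ± 288 CPM (mean ± SD, n = 4). In Con+Foxp2, where the same virus was given to control mice, the level was 4015 ± 431 CPM, and the 2 virus groups did not overlap. BACHD+Foxp2 was lower than Con+Foxp2, with a log2 fold change of -1.33 (adjusted p = 9.64e-05), and the part this difference in Foxp2 level has in the differences between those 2 groups was not tested. The relatives Foxp1 and Foxp4, which can pair with Foxp2, were not called. Foxp1 was at 472 CPM in Con+Con and 416 CPM in BACHD+Foxp2, and Foxp4 at 44.2 and 53.1 CPM.

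Htt and Msantd1 were high in both BACHD groups. Htt (chromosome 5, 34761740 to 34912534) encodes huntingtin, the protein that is expanded in Huntington disease, and reads of the human transgene and of the mouse gene cannot be told apart in these counts. It was at 264, 265, 323 and 294 CPM in Con+Con and at 483, 594, 579 and 555 CPM in BACHD+Foxp2. The treated BACHD mice lay within the range of the BACHD+Con mice, 470 to 767 CPM, and above every control. Its log2 fold change was 0.95 (SE 0.12, adjusted p = 4.62e-04). Msantd1 encodes a protein with a Myb/SANT-like domain. It lies at 34908012 to 34923839 on the same strand and overlaps the end of Htt by 4523 bases in the GENCODE annotation. Reads listed as ambiguous between genes stand in a summary line outside the gene counts. The annotation used for counting is not known, and the part that reads from the overlap have in these counts was not tested. Msantd1 was at 1.49 to 3.54 CPM in Con+Con and at 21.2, 19.97, 27.9 and 24.6 CPM in BACHD+Foxp2, a log2 fold change of 3.12 ± 0.55 (SE) and an adjusted p of 0.0231. In Con+Foxp2, without the transgene, the 2 genes were at 256 ± 11.8 and 3.91 ± 3.80 CPM.

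Rab3b (chromosome 4, 108879063 to 108943324) encodes a small GTPase that sits on synaptic vesicles and acts in transmitter release. It was at 27.1, 34.1, 27.0 and 26.8 CPM in Con+Con and at 42.8, 62.8, 55.7 and 68.3 CPM in BACHD+Foxp2. That is a log2 fold change of 1.00 (adjusted p = 0.0244, SE 0.18). The BACHD+Con mice, at 28.1 to 32.0 CPM, lay inside the Con+Con range, and the Con+Foxp2 mice, at 50.2 to 74.0 CPM, lay above it. Ptchd2, named Disp3 in the GENCODE annotation (chromosome 4, 148240264 to 148287965), encodes a membrane protein of the patched and dispatched family with a sterol-sensing domain. It was at 27.7, 19.3, 34.7 and 20.1 CPM in Con+Con and at 50.1, 42.5, 53.0 and 68.6 CPM in BACHD+Foxp2, a log2 fold change of 1.07 ± 0.21 (SE) and an adjusted p of 0.0480. In Con+Foxp2 it was at 33.9 to 49.9 CPM, which overlapped both Con+Con and BACHD+Con, the latter at 23.2 to 34.7 CPM. The virus contrasts were not called for Ptchd2, with an adjusted p of 0.186 in control mice and 0.112 in BACHD mice.

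Col4a2 had the lowest adjusted p among the falls. It encodes a chain of collagen IV, the network-forming collagen of basement membranes around brain vessels, and lies on chromosome 8 at 11312805 to 11449287, head to head with Col4a1 and overlapping it by 22 bases. Its level was 139, 167, 126 and 154 CPM in Con+Con and 82.3, 69.7, 78.1 and 49.1 CPM in BACHD+Foxp2. No treated mouse reached the lowest control, and the log2 fold change was -1.07 (SE 0.14, adjusted p = 6.69e-04). Its partner Col4a1, whose product forms heterotrimers with that of Col4a2, was at 96.5, 108, 85.8 and 73.7 CPM against 30.4, 78.9, 55.1 and 38.0 CPM, with a log2 fold change of -0.85 and an adjusted p of 0.211. Of 22 basement membrane genes tested, Col4a2 was the single one called, and their median log2 fold change was -0.07 beside a median of -0.001 over all tested genes.

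3 further falls were in enzymes that act on second messengers or on a kinase cascade. Pde2a (chromosome 7, 101421691 to 101512827) encodes a phosphodiesterase that breaks down cyclic AMP and cyclic GMP and is stimulated by cyclic GMP. It was at 648, 980, 600 and 815 CPM in Con+Con and at 382, 437, 451 and 470 CPM in BACHD+Foxp2, a log2 fold change of -0.81 ± 0.14 (SE) and an adjusted p of 0.0173. Dgki (chromosome 6, 36846022 to 37300184) encodes a kinase that turns diacylglycerol into phosphatidic acid. It was at 245, 362, 237 and 345 CPM against 188, 167, 174 and 204 CPM, a log2 fold change of -0.70 ± 0.13 (SE) and an adjusted p of 0.0438. Map2k5 (chromosome 9, 63163768 to 63377902) encodes the kinase that activates ERK5, and was at 69.0, 94.9, 68.5 and 63.2 CPM against 32.2, 48.1, 32.7 and 35.4 CPM, a log2 fold change of -0.99 ± 0.20 (SE) and an adjusted p of 0.0480. In all 3 genes every treated mouse lay below every control. Of 19 phosphodiesterase genes tested, 6 had values above 0 and 13 below, with a median log2 fold change of -0.07, and of 10 diacylglycerol kinase genes 2 had values above 0 and 8 below, with a median of -0.19, which was -0.09 without Con+Con mouse 2 and -0.33 without BACHD+Foxp2 mouse 2.

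Sidt2 encodes a lysosomal membrane protein of the SID1 family that takes part in the uptake of RNA into lysosomes (chromosome 9, 45937857 to 45955258). It was at 80.2, 112, 76.2 and 88.9 CPM in Con+Con and at 60.4, 52.4, 44.7 and 37.6 CPM in BACHD+Foxp2. The log2 fold change was -0.87 (SE 0.17, adjusted p = 0.0480). Among the called genes it was also the single one whose RefSeq promoter held a forkhead motif. RefSeq promoters (GRCm38.p6, from 250 bases before to 50 after the start) were found for 3 of the 5 rises and 6 of the 8 falls, and were searched on both strands for a pair of forkhead motifs that do not overlap each other. The first, TGTTTAC, stood in 1 of the 6 falls and 0 of the 3 rises, and in 310 of the 10256 promoters of tested genes (3.02%). The other, TATTTAT, stood in none of the 9, and in 3.56% of the promoters of tested genes. The 250 bases before the Sidt2 start (chr9:45955250-45955499, minus strand, 56.4% G and C) are shown because they hold that match, in capitals, 9 bases before the start. A match is a description of the letters and not a site of binding.
Sidt2: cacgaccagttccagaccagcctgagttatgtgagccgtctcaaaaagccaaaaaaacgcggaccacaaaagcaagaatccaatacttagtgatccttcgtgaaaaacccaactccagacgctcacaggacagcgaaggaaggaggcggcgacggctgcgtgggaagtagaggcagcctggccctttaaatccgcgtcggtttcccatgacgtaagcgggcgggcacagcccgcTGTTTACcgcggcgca

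Actn2 and Cox4i1 fell without a matching difference between Con+Foxp2 and BACHD+Con. Actn2 encodes an alpha-actinin that cross-links actin and anchors receptors in dendritic spines (chromosome 13, 12269426 to 12340760), and it stands among both the projection neuron identity genes and the genes reported to fall in Huntington disease models. It was at 95.6, 175, 64.0 and 132 CPM in Con+Con and at 46.8, 60.6, 45.4 and 51.3 CPM in BACHD+Foxp2. The controls varied widely, and the highest treated mouse lay just under the lowest control. The log2 fold change was -1.19 (SE 0.22, adjusted p = 0.0299). Both single-factor groups lay between, at 81.2 ± 12.4 CPM in Con+Foxp2 and 66.9 ± 10.7 CPM in BACHD+Con.

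Cox4i1 encodes a nuclear subunit of cytochrome c oxidase, complex IV of the respiratory chain (chromosome 8, 120668222 to 120674207). It was at 308, 304, 284 and 298 CPM in Con+Con and at 227, 229, 199 and 208 CPM in BACHD+Foxp2. The fall was small but the mice of each group lay close together, with a log2 fold change of -0.47 ± 0.09 (SE) and an adjusted p of 0.0480. BACHD+Foxp2 also lay below both single-factor groups with no overlap: Con+Foxp2 was at 289 ± 8.62 CPM and BACHD+Con at 289 ± 20.4 CPM. The interaction, which asks whether the virus acted differently in the 2 genotypes, was not called for Cox4i1 (log2 -0.37, SE 0.13, adjusted p = 1.00), nor was BACHD+Foxp2 against BACHD+Con (adjusted p = 0.0575). The gene overlaps Emc8 on the other strand by 352 bases, and Emc8 was at 58.7 CPM in Con+Con and 53.1 CPM in BACHD+Foxp2. Of 32 respiratory chain and ATP synthase genes tested Cox4i1 was the single one called, and 13 had values above 0 and 19 below, with a median log2 fold change of -0.02. Ndufa4, a protein of the same complex despite its name, was at 55.8, 59.2, 55.9 and 53.2 CPM against 40.2, 43.9, 40.3 and 35.1 CPM, also without overlap, with an adjusted p of 0.336.

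Each of the 13 genes had groups that did not overlap, as had 451 of all tested genes (3.33%). For any such gene a two-sided exact permutation test of 4 against 4 mice gives p = 0.0286, the smallest it can give. That p follows from the lack of overlap in the same 8 mice and is no separate support for the calls. Foxp2, Htt and Col4a2 stayed called when any 1 of the 8 mice was left out, with adjusted p of at most 6.52e-11, 0.0056 and 0.00589. Of the other genes described here, 9 each depended on single mice. All 9 missed the threshold when Con+Con mouse 4, BACHD+Foxp2 mouse 3 or BACHD+Foxp2 mouse 4 was absent, and all except Rab3b when Con+Con mouse 2 was. Their highest adjusted p in these fits ranged from 0.110 for Pde2a to 0.235 for Map2k5, and the sign of none of the 13 changed. The number of calls was 4 without Con+Con mouse 4, BACHD+Foxp2 mouse 3 or BACHD+Foxp2 mouse 4, 5 without Con+Con mouse 2, 8 without mouse 1 of either group and 21 without Con+Con mouse 3. With the summed choroid plexus level as a covariate 18 genes were called, and with the summed cortical level 22, the 13 among them each time. Without the 7 libraries of the series above 1000 CPM in choroid plexus genes, which leaves Con+Con mouse 2 alone in its group and assumes that it varies like the other groups, 4 genes were called, 3 of them among the 13. Htt and Col4a2 then had log2 fold changes of 1.04 and -1.32, about as large as with all libraries, with adjusted p of 0.0761 and 0.0587.

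The 2 single-factor groups share no library with the comparison, so Con+Foxp2 minus BACHD+Con gives a second set of values, in which a difference that follows the virus keeps its sign and one that follows the genotype turns. Both contrasts were read from 1 fit and share its estimate of the spread. In Con+Foxp2 against BACHD+Con 71 genes were called (0.523% of those tested), 31 higher (0.229%) and 40 lower (0.295%). Among them were 9 of the 13 genes, which is 69.2% of the 13 and 12.7% of the 71. Foxp2, Col4a2, Pde2a, Rab3b, Dgki, Sidt2 and Map2k5 had the same sign, with log2 fold changes of 5.08, -1.49, -1.11, 0.94, -0.80, -0.87 and -1.03. Htt and Msantd1 turned, at -1.25 and -2.92. Among those not called there were Ptchd2 (0.58, adjusted p = 0.362), Actn2 (0.28, adjusted p = 0.851) and Cox4i1 (-0.00, adjusted p = 0.998). With each set of 8 libraries fitted alone, 7 and 95 genes were called and 5 in both: Foxp2, Col4a2 and the astrocyte gene Gfap with the same sign, and Htt and Msantd1 with the opposite one.

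**Figure D2:**
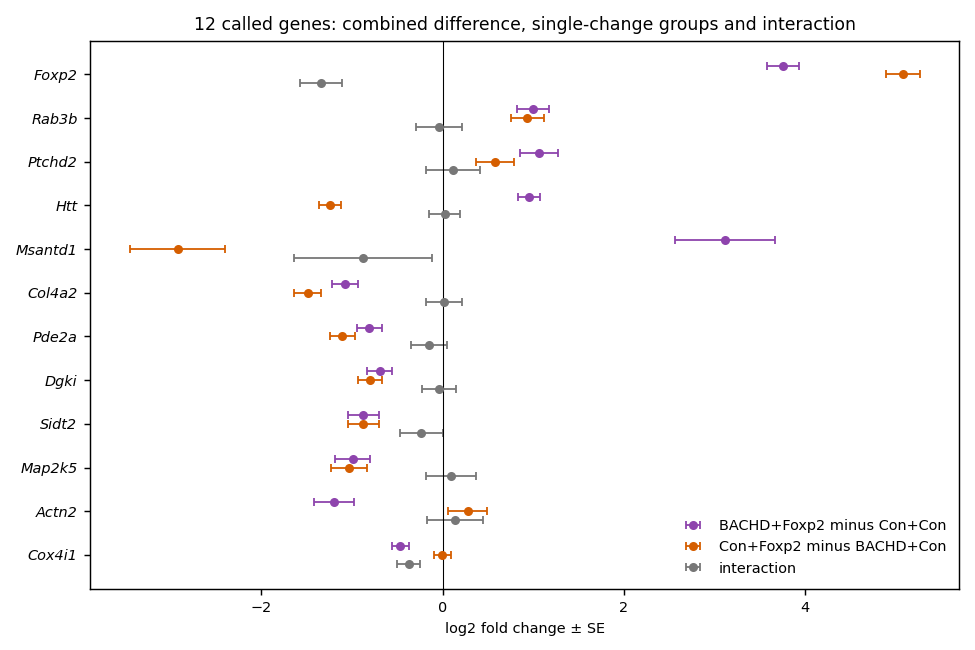
Log2 fold change ± SE on the x axis for 12 called genes, for BACHD+Foxp2 minus Con+Con, for Con+Foxp2 minus BACHD+Con, and for the interaction of genotype and virus, from 1 fit of 16 libraries. The first 2 values lie on the same side of 0 for 9 of the 12 genes, and on opposite sides for Htt, Msantd1 and Actn2.

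Read from the other end, the 71 genes were set beside their values in BACHD+Foxp2 against Con+Con. Foxp2, Htt and Msantd1 are left out of these counts. Of 38 genes lower in Con+Foxp2 than in BACHD+Con, 37 had a value below 0 in BACHD+Foxp2 against Con+Con, 5 were called and 31 had an unadjusted p under 0.05. Their median log2 fold change was -0.47, against -0.84 between the single-factor groups. Of 30 genes higher in Con+Foxp2, 25 had a value above 0, 1 was called and 15 had an unadjusted p under 0.05, with a median of 0.42 against 1.29. The median ratio of the paired fold changes was 0.542 for the lower genes and 0.272 for the higher ones, and the ratio was under 0.25 for 2 of the 38 and 11 of the 30. Since the 71 were chosen for a large difference between the single-factor groups, a smaller value elsewhere follows in part from that choice, and the difference between the 2 sets was not tested. The genotype difference also enters the 2 contrasts with opposite signs. A ratio is therefore not the share of a virus difference that was kept in BACHD mice. Over all tested genes 57.1% had the same sign in both contrasts. In BACHD+Foxp2 against Con+Con, 0.0958% of all tested genes were called and 7.14% had an unadjusted p under 0.05.

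Several genes with a strong rise in Con+Foxp2 stood near the Con+Con level in BACHD+Foxp2. They are named after their values were seen. Frmpd1, which encodes a scaffold protein with FERM and PDZ domains, was at 17.2, 18.7, 21.7 and 24.9 CPM in BACHD+Foxp2 and at 28.3, 12.9, 20.6 and 34.2 CPM in Con+Con, while Con+Foxp2 mice were at 61.7 to 81.9 CPM. Its log2 fold change between BACHD+Foxp2 and Con+Con was -0.21, with a 95% interval of -0.71 to 0.28. The interval for Cdh4, a classical cadherin, was -0.39 to 0.62 around 0.12, with 20.8, 34.4, 15.5 and 17.2 CPM in BACHD+Foxp2 against 53.8 to 67.3 CPM in Con+Foxp2. For Elfn1, a synaptic protein with leucine-rich repeats, it was -0.54 to 0.44 around -0.05, with 24.1, 30.1, 32.7 and 20.4 CPM against 56.7 to 106 CPM in Con+Foxp2. In each of these 3 genes the BACHD+Foxp2 mice overlapped the Con+Con mice and none reached the Con+Foxp2 mice.

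Col23a1, a transmembrane collagen, lay between the groups. It was at 23.4, 24.2, 18.2 and 20.1 CPM in BACHD+Foxp2, at 7.08, 13.2, 18.0 and 2.60 CPM in Con+Con and at 96.6 to 155 CPM in Con+Foxp2. Its log2 fold change against Con+Con was 1.06, with a 95% interval of 0.39 to 1.72. By the edgeR test, Benjamini-Hochberg adjusted, the interaction was called for 0 genes (0% of those tested), with an adjusted p of 0.0770 for Foxp2, 0.362 for Col23a1, 0.386 for Cdh4, and 0.809 for Elfn1 and Frmpd1. Its unadjusted p was under 0.05 in 516 genes (3.8%), limma voom called 0, and DESeq2 called 3, namely Foxp2, Col23a1 and Pax7, all with a smaller virus difference in BACHD mice. Jun, a subunit of the AP-1 transcription factor, is a case where the treated BACHD mice resembled the treated control mice: it was at 78.3, 98.5, 99.8 and 97.6 CPM in BACHD+Foxp2 and at 108 ± 15.9 CPM in Con+Foxp2, against 49.6 to 66.5 CPM in Con+Con (adjusted p = 0.230 for BACHD+Foxp2 against Con+Con).

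**Figure D3:**
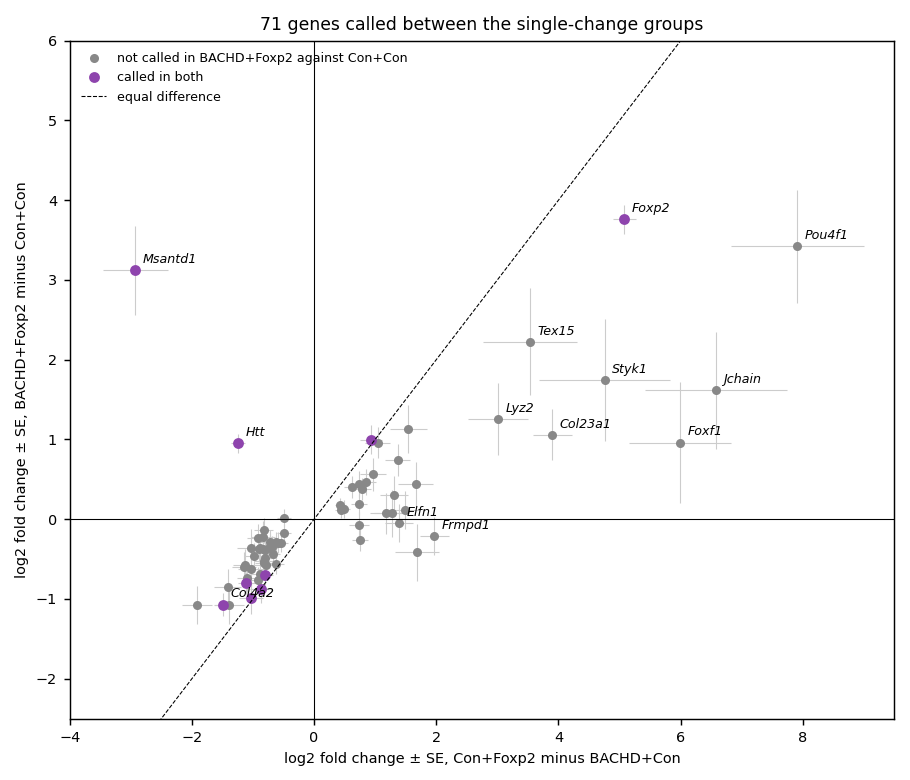
The 71 genes called between Con+Foxp2 and BACHD+Con, with that log2 fold change ± SE on the x axis and BACHD+Foxp2 minus Con+Con on the y axis. Points called in both contrasts are purple, the dashed line marks equal differences, and most points right of 0 on the x axis lie below the line, with Htt and Msantd1 at the upper left.

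The identity genes of projection neurons were read as lists, and no list was tested as a set. Counts and medians are given beside 49.8% of all tested genes above 0 and a median of -0.001. Of 28 shared identity genes, 3 had values above 0 and 25 below, with a median log2 fold change of -0.26, and Actn2 alone was called. Direct pathway genes had 3 of 13 above 0 and a median of -0.32, and indirect pathway genes 2 of 12 above 0 and a median of -0.24, with none called. Of 33 genes reported to fall in Huntington disease model striatum, 10 had values above 0 and 23 below, with a median of -0.22. The shared identity list had medians of -0.47 in Con+Foxp2 and 0.01 in BACHD+Con, each against the same Con+Con mice. Its median was -0.25 in BACHD+Foxp2 against BACHD+Con and -0.32 in Con+Foxp2 against BACHD+Con, which do not use Con+Con. With the cortical marker level as a covariate the median of the shared list was -0.08. The medians rested on single mice. That of the shared list was -0.11, -0.42 and -0.17 on leaving out Con+Con mice 2, 3 and 4 in turn. The direct pathway median was -0.07 and the indirect pathway median -0.13 without Con+Con mouse 2. The median of the Huntington disease list was -0.07 without Con+Con mouse 4 but -0.37 when mouse 3 was left out. Over all 34 lists, the median of 29 changed sign or moved by over 1.5 times when 1 of the 8 mice was left out. The 5 exceptions were the beta protocadherin, class I antigen presentation, AP-1, reactive astrocyte and meningeal lists.

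Single identity genes rested on wide spreads among the controls. Pde10a, the striatal phosphodiesterase, was at 1082, 1966, 898 and 1787 CPM in Con+Con and at 1065, 885, 963 and 1294 CPM in BACHD+Foxp2 (log2 fold change -0.45, adjusted p = 0.626). Con+Con mice 2 and 4 were high and mice 1 and 3 lay among the treated mice. The same split held for Scn4b, a sodium channel beta subunit, at 361, 630, 357 and 646 CPM against 357, 289, 378 and 381 CPM (-0.50, adjusted p = 0.530), and for Drd2, at 81.7, 134, 72.3 and 125 CPM against 92.2, 58.9, 76.7 and 74.6 CPM (-0.45, adjusted p = 0.672). Among the called falls, Pde2a, Dgki, Actn2, Col4a2 and Sidt2 were also higher in Con+Con mice 2 and 4 than in mice 1 and 3. Map2k5 and Cox4i1 were not, and in all of these called genes every control lay above every treated mouse. The part that this difference among the controls has in the called falls was not tested. Drd1 had a log2 fold change of -0.22, Adora2a -0.48, and the striatal neuropeptide precursor genes Penk -0.19, Tac1 -0.13 and Pdyn 0.42, none of them called. The phosphoprotein gene Ppp1r1b, which encodes DARPP-32, was at -0.24. Drd1, Penk and Tac1 had values above 0 when a single mouse was left out, of 0.076 for Drd1 and 0.14 for Tac1 without Con+Con mouse 2, and 0.095 for Penk without Con+Con mouse 4.

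Cholinergic interneuron genes had the lowest median of the neuronal lists, at -0.54, with 3 of 13 above 0 and 10 below. Chat, the acetylcholine-synthesizing enzyme, was at 12.1, 16.1, 10.6 and 19.7 CPM in Con+Con and at 4.39, 2.62, 4.47 and 5.74 CPM in BACHD+Foxp2. The groups did not overlap, but with a log2 fold change of -1.75 (SE 0.37) its adjusted p of 0.0773 missed the threshold. Slc5a7, the choline transporter, was at 21.5, 45.7, 9.001 and 39.4 CPM against 19.0, 5.89, 3.78 and 0.957 CPM (adjusted p = 0.317). The list median was -0.90 in Con+Foxp2 and -0.02 in BACHD+Con, each against Con+Con. Without BACHD+Foxp2 mouse 1 the median in BACHD+Foxp2 against Con+Con was -0.97, and with the cortical covariate it was -0.32. GABAergic interneuron genes had a median of -0.09, with 4 of 12 above 0.

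Beta protocadherin and class I antigen presentation genes had the highest medians of all the lists. The beta protocadherins are clustered cell adhesion proteins that neurons express in combinations. Of 22, 21 had values above 0, with a median log2 fold change of 0.71, and 11 had an unadjusted p under 0.05 (7.14% over all tested genes), 7 had groups that did not overlap (3.33% over all tested genes) and 0 were called by edgeR. The list was chosen with earlier results of these data known, so its distance from those shares may follow in part from that choice. Pcdhb18 was at 8.26, 15.4, 11.3 and 10.04 CPM in Con+Con and at 34.0, 25.2, 24.8 and 24.2 CPM in BACHD+Foxp2 (log2 fold change 1.26, adjusted p = 0.119). Every treated mouse was above every control. The medians against Con+Con were 0.68 in Con+Foxp2 and 0.27 in BACHD+Con, and over the 19 alternatives the median between BACHD+Foxp2 and Con+Con stayed between 0.60 and 0.86. The cluster's members have similar sequences and share the counting of single alignments, so they are not independent and values of single genes are uncertain.

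Of 19 antigen presentation genes 12 passed the filter on low counts, and all of those 12 had values above 0, with a median log2 fold change of 0.79 and none called. A gene that passes such a filter through the group in which it is high has to differ, so the 12 do not stand for the list. Summed over all 19 members, the level was 739 ± 62.9 CPM in Con+Con and 839 ± 67.9 CPM in BACHD+Foxp2, and the groups overlapped. B2m, the light chain of class I molecules, was at 39.8, 43.1, 34.7 and 29.8 CPM in Con+Con and at 79.7, 54.7, 47.8 and 82.9 CPM in BACHD+Foxp2 (0.84, adjusted p = 0.142). H2-K1, a heavy chain with near-identical relatives, was at 11.2, 5.47, 5.46 and 3.35 CPM against 20.5, 21.3, 24.1 and 12.1 CPM (1.59, adjusted p = 0.204). Both genes had groups without overlap. They make up a small part of the sum over the list, so the overlap of that sum says little about them. The list median was 0.80 in Con+Foxp2 and 0.07 in BACHD+Con, each against Con+Con. Interferon-stimulated genes had a median of 0.35, with 12 of the 18 tested above 0, a median that was 0.21 without Con+Con mouse 4 but 0.54 when mouse 2 was left out.

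Among glial genes Gfap, the intermediate filament of reactive astrocytes, came closest to the threshold. It was at 279, 248, 221 and 283 CPM in Con+Con and at 541, 323, 538 and 604 CPM in BACHD+Foxp2, with a log2 fold change of 0.96 ± 0.20 (SE) and an adjusted p of 0.0650. The groups did not overlap, and BACHD+Con was at 207 ± 71.9 CPM and Con+Foxp2 at 427 ± 83.9 CPM. Of 10 reactive astrocyte genes tested 7 had values above 0, with a median of 0.39, and their summed level was 396 to 489 CPM in Con+Con and 523 to 843 CPM in BACHD+Foxp2. Gfap makes up most of that sum, and without it the groups overlapped, at 159 to 210 CPM and 199.98 to 261 CPM. General astrocyte genes had a median of 0.16 and microglial genes one of 0.16, with 9 of 16 and 10 of 17 above 0, and the medians were 0.07 and 0.08 without Con+Con mouse 2. Of 16 infiltrating myeloid and phagocytic genes 7 passed the filter on low counts, 3 with values above 0 and 4 below, and none was called. Their median of -0.21 was 0.49 without Con+Con mouse 1. Lyz2 had a log2 fold change of 1.26 (adjusted p = 0.498) and Lpl one of -0.52 (adjusted p = 0.698). Ccr2, a defining receptor of infiltrating monocytes, had 0 reads in both groups, but it is a single member of that list.

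7 genes had an adjusted p from 0.05 to 0.10, between 0.0650 and 0.0939, next to a largest value of 0.0480 among the called genes. With Gfap and Chat they were C130060K24Rik, Hook2, Arsb and 2 developmental regulators usually silent in the adult striatum. Pou4f1, a homeodomain transcription factor of sensory neurons, was at 0.295, 0.965, 1.29 and 0.372 CPM in Con+Con and at 5.85, 5.56, 5.16 and 16.3 CPM in BACHD+Foxp2 (adjusted p = 0.0773). Cdx2, a homeodomain factor of the gut, had 0 reads in the 4 Con+Con mice and 41 in the 4 BACHD+Foxp2 mice, which is at least 14.2-fold higher against a floor of 3 counts over the group (adjusted p = 0.0650). Of 40 such regulators 12 passed the filter on low counts, and none was called. A near-silent gene passes such a filter through groups in which it is higher, so the 12 do not stand for the list. Of 18 tested genes that earlier work names as targets of FOXP2, 9 had values above 0 and 9 below, with a median of -0.04 and none called. Potassium channel genes had a median of 0.06 over 45 genes, calcium channel genes -0.01 over 22, AP-1 genes 0.30 over 10, activity-induced genes 0.03 over 19, cholesterol synthesis genes 0.18 over 21 and heat shock genes 0.05 over 26.

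**Figure D4:**
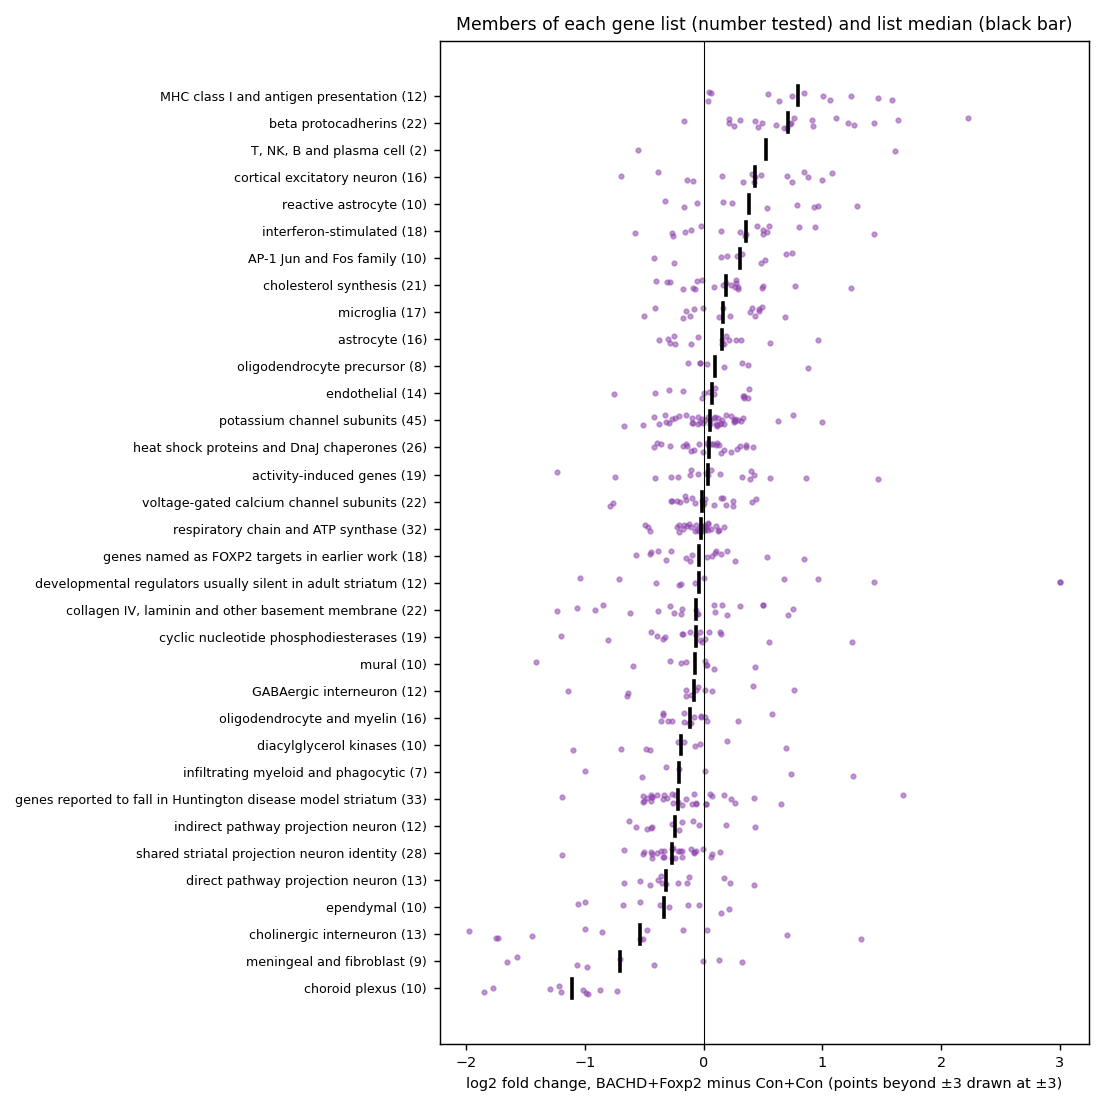
Log2 fold change of BACHD+Foxp2 minus Con+Con on the x axis for every tested member of each gene list (points) with the list median (black bars) and the number tested in brackets. The class I antigen presentation and beta protocadherin medians, 0.79 and 0.71, are highest, and the choroid plexus median, -1.11, is lowest.

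Genes of neighbouring tissue moved between the groups as well. All 10 choroid plexus genes had values below 0, with a median log2 fold change of -1.11 and 0 called, and the median went to -3.65 without BACHD+Foxp2 mouse 3 and to -0.52 when Con+Con mouse 1 was left out. Meningeal and fibroblast genes had 7 of 9 below 0 and a median of -0.70, with a summed level of 232 to 619 CPM in Con+Con and 210 to 471 CPM in BACHD+Foxp2. Cortical excitatory neuron genes had 12 of 16 above 0 and a median of 0.43, which became 1.40 without Con+Con mouse 3 but 0.11 when mouse 4 was left out. Their summed level was 1547, 1588, 3194 and 1270 CPM in Con+Con and 1934, 2773, 2656 and 1815 CPM in BACHD+Foxp2. Shared projection neuron genes were highest in the same Con+Con mice, 2 and 4, whose Pde10a, Scn4b and Drd2 levels were high. Pde10a and Scn4b belong to that list, so for them this is in part the same observation. None of the defining choroid plexus, meningeal or cortical genes was at 0 over either group. Oligodendrocyte genes had a median of -0.12, and oligodendrocyte precursor, endothelial and mural genes had medians of 0.10, 0.07 and -0.07. The part that these tissue markers have in the list medians was not tested beyond the fits with a covariate.

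**Figure D5:**
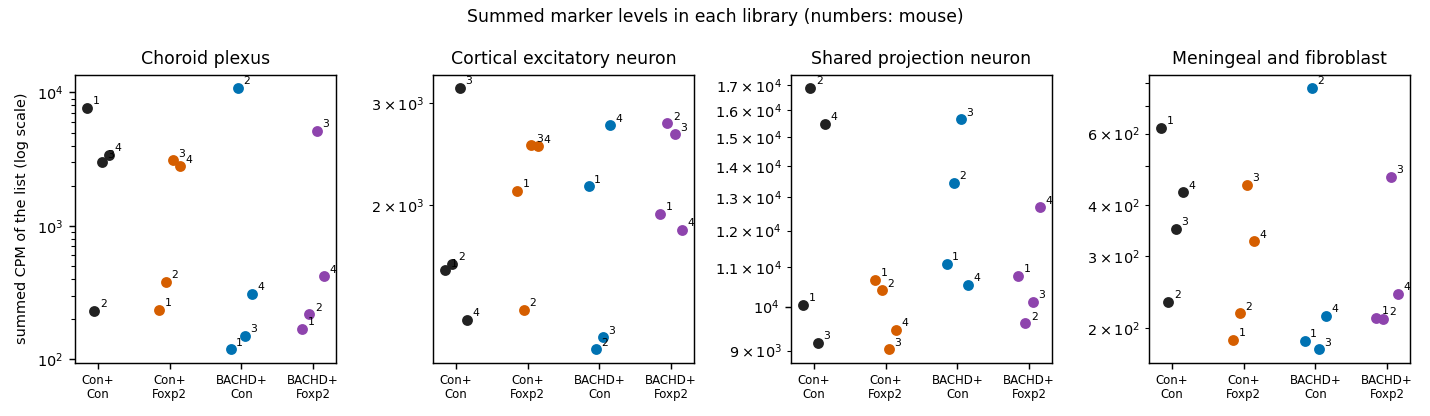
Summed CPM of 4 marker lists on log axes for each of the 16 libraries by group, with mouse numbers beside the points. Choroid plexus genes are high in Con+Con mice 1, 3 and 4 and in BACHD+Foxp2 mouse 3, and projection neuron genes are highest in Con+Con mouse 2, at 16901 CPM.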

How the data were processed

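Striatal RNA of 16 mice, 4 per group, was sequenced from SMARTer libraries, per the labels' protocols. The authors deposited read counts per gene for each mouse, as whole numbers without normalization. Tools and build, per the submitters' processing notes, were mm10, HTSeq, STAR 2.4.0 and DESeq2. No source used here states whether counting used strand.

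Reads in genes ranged from 2660395 to 3669748 per library. The 5 summary lines (75.3% to 77.5% of listed reads) were left out. No 2 libraries agreed within counting error: over 120 pairs, chi-square per degree of freedom was 4.34 or more.

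Counts were tested two-sided in R 4.3.3 with edgeR 4.0.16 (quasi-likelihood, TMM scaling, filterByExpr, 1 fit of 16 libraries, 12 residual degrees of freedom). DESeq2 1.42.0 and limma 3.58.1 (voom), other filters, fits without each mouse, a replicate block and marker covariates were alternatives, the last and the fits without marker-defined libraries added after seeing the data. The script was tested on simulated data with 200 changed genes. It called 144 genes, 13 of them unchanged, and recovered 50% of the 2-fold and 81% of the 4-fold changes. Named genes were a panel of 14, called genes and the 3 members of each list with the lowest p. Others, such as Emc8, Hook2, Arsb, C130060K24Rik and Col23a1, were named after their values were seen. Members and lists were chosen with earlier results of these data known. 1 called gene is not reported here. Coordinates are GENCODE M21 (GRCm38).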

Additional observations from a re-analysis of the deposited data

Results flagged for a closer look

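4 of 56 groups of values tested, the levels of named genes and lists in 4 mice of a group, held a mouse far from the other 3, where chance gives about 1 in 20 (2.8). Rab3b was at 34.1 CPM in Con+Con mouse 2 and 26.8 to 27.1 CPM in the other 3. The summed level of cortical genes was 3194 CPM in Con+Con mouse 3 and 1270 to 1588 CPM in the other 3. In BACHD+Foxp2 mouse 3, choroid plexus genes summed to 5132 CPM, against 169 to 417 CPM in the other 3, and meningeal genes to 471 CPM, against 210 to 243 CPM.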

How the results depend on the processing

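For BACHD+Foxp2 against Con+Con the 13 called genes became 40 with DESeq2 (all 13 among them), 5 with limma voom, 29 with no filter on low counts (12 of the 13), 7 with the 8 libraries fitted alone (5 of the 13), 4 at an adjusted p under 0.01 and 20 under 0.10, and 4 to 21 with 1 mouse left out (fewest on leaving out Con+Con mouse 4 or BACHD+Foxp2 mouse 3 or 4, most on leaving out Con+Con mouse 3). Among fits chosen after seeing the data, 4 were called without the libraries high in choroid plexus genes, 22 with the cortical covariate and 6 without the 3 libraries lowest in cortical genes. With the replicate number as a block 8 genes were called, all among the 13. Mice of the same number were not treated as pairs in the main fit. Between Con+Con and BACHD+Foxp2 their deviations correlated at 0.02 to 0.08, and 1 of 4 numbers matched itself best. Such a check cannot show that the numbers carry no pairing. For Con+Foxp2 against BACHD+Con the 71 became 140 with DESeq2, 117 with no filter and 39 to 70 with 1 mouse left out (39, 44 and 44 without Con+Foxp2 mice 2, 3 and 4, and 41 without BACHD+Con mouse 3). The interaction, called for 0 genes, was called for 3 with DESeq2, 3 with no filter and 0 to 1 with 1 mouse left out. Log2 fold changes that turned sign were all in genes not called. With 1 mouse left out Drd1 ranged from -0.37 to 0.076 (above 0 without Con+Con mouse 2), Tac1 from -0.34 to 0.14 (0.14 without that same mouse and 0.018 without BACHD+Foxp2 mouse 3), Reln from -0.23 to 0.0020 (above 0 without that mouse) and Penk from -0.34 to 0.095 (above 0 without Con+Con mouse 4). With the cortical covariate Penk was 0.056 and Tac1 0.12. Without the 3 libraries lowest in cortical genes Penk was 0.096. Without the libraries high in choroid plexus genes, a fit that rests on Con+Con mouse 2 alone, Foxp4 was -0.13, Lama5 0.11, Rora 0.23, Rorb 0.34 and Col3a1 0.090. The cause was not tested. At this depth levels near 1 CPM rest on about 3 reads in a library.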
